A study of Rattus norvegicus with 18 samples.

Results

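The genes described here are 81 of the 32662 gene rows counted in rat brain, chosen by their counts for being higher in the prelimbic cortex (PL) 1 h after an aversive training session while staying near the untrained level in the dorsal hippocampus (dHC). Adult Long-Evans rats were killed without any training from their home cages (the naive group), or 1 h or 6 d after a session of inhibitory avoidance. Inhibitory avoidance is a task in which an animal learns to stay away from a place where it was given a foot shock. Each group of 1 region and 1 condition held 3 pools, and each pool held tissue punched from 5 rats, so that 6 groups gave 18 libraries. The naive rats differed from the trained rats in the whole training session, handling and shock included, since no other control group was part of the comparison. The series design text calls the pools independent. The p-values therefore cover the spread between pools and not that between single rats.

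The prelimbic cortex is a medial prefrontal area that takes part in the recall and control of learned fear and avoidance. The dorsal hippocampus is needed to form memories of places and events. Neuronal activity starts transcription of rapid response genes, many of which encode transcription factors, and a later wave of genes for synaptic, secreted and signalling proteins follows.

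Members were selected on CPM, a gene's share of the library's gene counts scaled to a fixed total, averaged over the 3 pools of a group and taken as log2(mean CPM + 0.5). A member had a PL mean of at least 5 CPM at 1 h, a PL difference between 1 h and naive of at least 0.4 on that log2 scale, every PL 1 h pool above every PL naive pool, and a dHC difference under 0.2. The rule also left out 14 listed genes, of which 13 met the PL conditions and 0 met all conditions, so that leaving them out removed no member. Of 11401 genes with at least 5 CPM in PL at 1 h, 155 met the PL conditions, 81 of them with a dHC difference under 0.2 and 74 with one at or above it. The values at 1 h and in naive rats chose the members, so edgeR's calls and p-values on them, printed below to show how the members read in a fit over all genes, are descriptions and no evidence for the choice.

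The files give genes by Ensembl identifier, and none of the 32662 identifiers could be paired with a symbol in the reference tables used here. Members are therefore called by rank, member 1 having the largest PL difference and member 81 the smallest. Member 1 is ENSRNOG00000059956 and member 2 is ENSRNOG00000053410. The members with the most negative dHC differences at 1 h, member 10 and member 7, are ENSRNOG00000020369 and ENSRNOG00000016957. What the members encode, which pathways they belong to and whether markers of PL, dHC or single cell types were present in the tissue is not analysed here.

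Libraries held 7463875 to 9215695 counts given to genes, and 3 counts corresponded to 0.326 to 0.402 CPM. Between 63.3% and 68.3% of the reads of a library were given to no gene. The lowest count of a member in any PL naive or 1 h pool ranged from 11 to 677 with a median of 56 over the members, so that counting error is larger for the lower members. No batch or processing day is given in the labels, and the libraries are numbered in blocks by group, so that order of handling and group cannot be told apart. In bulk tissue, more cells of a type and more RNA per cell cannot be told apart either.

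The PL differences that chose the members were mostly small. They ran from 0.40 to 1.6 with a median of 0.50 on the log2(mean CPM + 0.5) scale, and 3 members had a difference of 1 or more, 34 one between 0.5 and 1, and 44 one under 0.5. As ratios of mean CPM the members were 1.33 to 3.52 times the naive level, with a median of 1.44. PL levels at 1 h ranged from 5.05 to 146.96 CPM with a median of 11.6, against 2.06 to 96.5 CPM and a median of 7.19 in naive rats. At 1 h, 34 members had a mean under 10 CPM, 39 one between 10 and 50 CPM, and 8 one of 50 CPM or more. The gap between the pools was narrow for many: the lowest 1 h pool was 1.02 to 2.31 times the highest naive pool, under 1.1 times in 20 members and at least 1.2 times in 36.

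**Figure D1:**
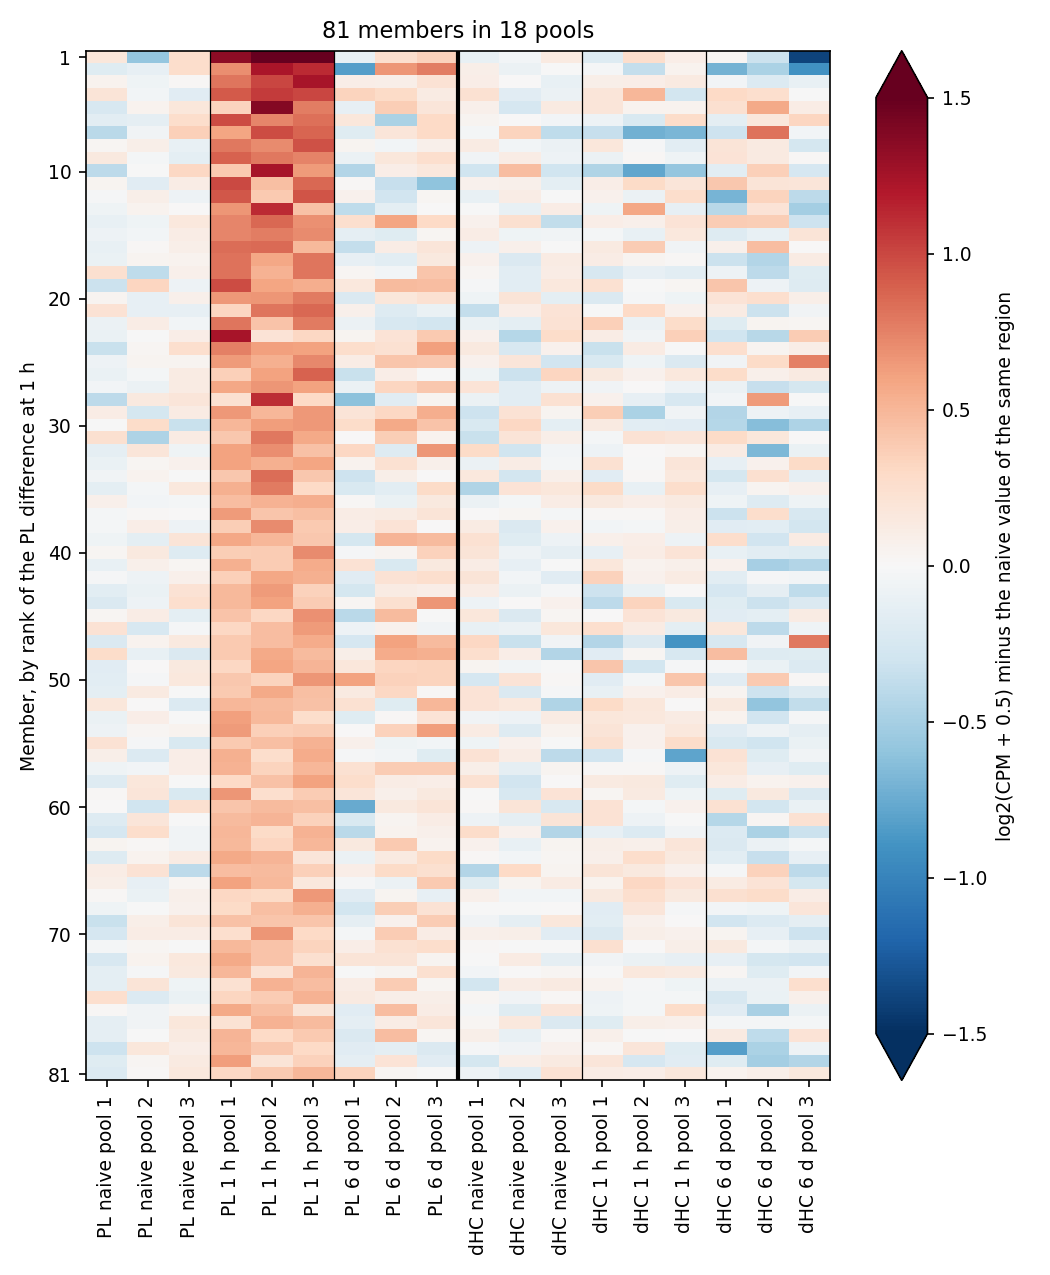
Values of the 81 members (rows, ordered by rank) in the 18 pools (columns), drawn as log2(CPM + 0.5) minus the naive value of the same region, with red above and blue below naive. The 3 PL 1 h columns are red throughout, as the rule requires, the PL 6 d columns are pale red in many rows, and no dHC column is red throughout.

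Member 1, the member with the largest PL difference, stood at 2.39, 1.21 and 2.58 CPM in the naive PL pools and at 5.96, 7.29 and 8.46 CPM in the 1 h pools. At 6 d its PL values were 1.87, 2.55 and 2.75 CPM, inside or just above the naive range. In dHC the same gene had 4.28, 4.55 and 5.21 CPM in naive pools, 4.04, 5.70 and 5.03 CPM at 1 h, and 4.80, 3.63 and 1.48 CPM at 6 d. Naive PL thus held less of this transcript than naive dHC, without overlap of the pools, and PL at 1 h held more than dHC at 1 h, also without overlap. The PL change at 1 h was 1.81 ± 0.25 (log2 fold change and SE, edgeR), and the dHC change was 0.08 with a 95% interval of -0.47 to 0.63.

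Member 2 was higher in PL than in dHC in every condition, without overlap of the pools. Its PL pools held 3.36, 3.52 and 4.79 CPM in naive rats, 6.64, 9.75 and 9.03 CPM at 1 h, and 1.98, 6.43 and 6.99 CPM at 6 d. Its dHC pools held 1.04 to 1.24 CPM in naive rats, 0.783 to 1.2 CPM at 1 h, and 0.370 to 0.681 CPM at 6 d, where 3 counts correspond to 0.341 to 0.379 CPM. The PL 6 d pools split widely, with pool 1 below every naive pool and the other two above every naive pool. edgeR called member 2 at 1 h (1.12 ± 0.28, log2 and SE, adjusted p = 0.046), and the call was lost without naive pool 1 or 2 or any one of the 1 h pools (adjusted p from 0.0603 to 0.213).

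Member 3 was the most abundant of the 3 members with a difference above 1, and its naive pools were tight. It stood at 39.7, 36.4 and 38.6 CPM in naive PL and at 66.8, 76.7 and 90.9 CPM at 1 h. At 6 d the PL pools held 41.1, 40.7 and 44.5 CPM, all above the naive pools and far below those at 1 h. Its 9 dHC pools stayed between 26.2 and 33.2 CPM. The dHC change at 1 h was 0.11 with a 95% interval of -0.06 to 0.29, against 1.02 ± 0.09 in PL (edgeR log2 fold changes).

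Members 15 and 20 had naive PL levels like that of member 3 and smaller PL differences. Member 15 held 45.5, 46.6 and 52.1 CPM in naive PL, 80.2, 82.3 and 79.1 CPM at 1 h and 43.7, 42.2 and 49 CPM at 6 d, while its dHC pools at 1 h, 30.7, 29 and 35 CPM, overlapped the naive 34.0, 29.9 and 30.1 CPM. Member 20 held 38.1, 33.8 and 38.8 CPM in naive PL, 58.2, 58.6 and 63.8 CPM at 1 h and 31.7, 41.5 and 43.2 CPM at 6 d. In dHC it held more, 56.5, 67.8 and 53.4 CPM in naive pools, 50.9, 58.7 and 56.5 CPM at 1 h and 68.4, 70.7 and 63.0 CPM at 6 d. For member 15 PL was the higher region in every condition, whereas for member 20 the PL pools at 1 h came up to the dHC level.

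The members that followed in rank were mostly of low abundance with well separated pools. Member 4 held 9.01, 7.59 and 6.88 CPM in naive PL, 15.2, 16.7 and 16.2 CPM at 1 h and 10.0, 9.65 and 8.59 CPM at 6 d. Member 6 held 11.3, 11.4 and 15.2 CPM, then 25.4, 21.4 and 22.7 CPM, then 14.3, 8.98 and 15.7 CPM. Member 8 held 19.97, 20.8 and 18.0 CPM, then 34.2, 32.4 and 38.4 CPM, then 20.3, 19.0 and 20.7 CPM. In these 3 members every 1 h pool was above every naive and every 6 d pool. Member 9 held 5.53, 4.84 and 4.42 CPM in naive PL, 9.56, 8.93 and 8.57 CPM at 1 h and 4.62, 5.63 and 5.96 CPM at 6 d. Member 5 differed from them in that its 1 h pools, 6.41, 13.7 and 8.80 CPM, spread widely and came close to the naive 4.12, 5.17 and 5.65 CPM and to the 4.51, 6.56 and 5.73 CPM at 6 d. Its lowest 1 h pool lay below the highest 6 d pool.

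**Figure D2:**
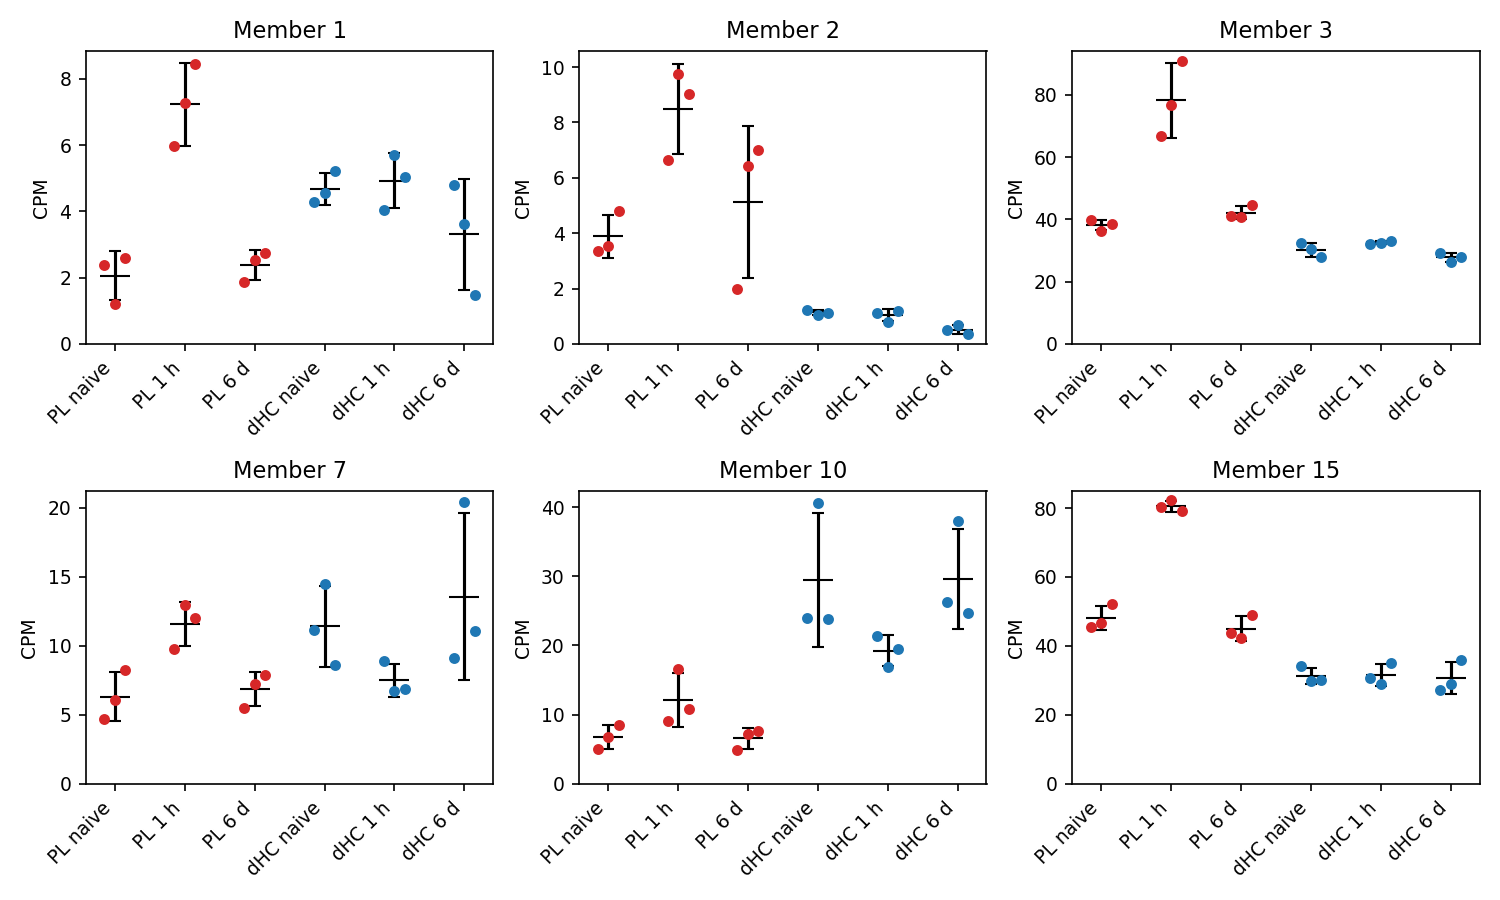
CPM of members 1, 2, 3, 7, 10 and 15 in each pool (points, red PL and blue dHC), with the group mean and SD over 3 pools as bars, in the 3 conditions of each region. Each PL 1 h group lies above its PL naive and 6 d groups except for member 2, where 6 d pools 2 and 3 reach 6.43 and 6.99 CPM and the lowest 1 h pool holds 6.64 CPM.

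Read by edgeR's quasi-likelihood test over the 14318 genes tested in PL, 34 of the 81 members were called higher at 1 h than in naive rats at an adjusted p under 0.05, against 0.782% of all genes tested. That contrast is the one the rule used, so the count describes the members and supports nothing. The 34 had adjusted p from 2.80e-07 to 0.0476 (edgeR), a median difference of 0.71 and a median naive level of 13.1 CPM. The other 47 had adjusted p from 0.0599 to 0.287 (edgeR), a median difference of 0.47 and a median naive level of 6.47 CPM. The count moved with single pools: it was 18 without naive pool 1, 19 without naive pool 2, 19 without 1 h pool 1, 18 without 1 h pool 2 and 18 without 1 h pool 3. The count over all genes fell too, from 112 to 62, 60, 66, 58 and 52 in the same order. Of the 34, 12 were called in all 14 alternative fits, among them members 1 and 3.

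In 8 members a single PL 1 h pool was at least 1.3 times the next highest, and in 6 of these it was pool 2. Member 28, the most abundant member, held 114, 209 and 119 CPM at 1 h against 73.5, 107 and 109 CPM in naive PL. The highest of its 1 h pools was thus far above the other two, which lay only a little above the naive range. Member 23 had its high value in 1 h pool 1, with 8.44 CPM against 3.88 and 4.23 CPM in the other pools. Neither member was called at 1 h (edgeR adjusted p = 0.0958 and 0.179). Over all members the highest 1 h pool was pool 1 in 27, pool 2 in 28 and pool 3 in 26.

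In dHC the differences at 1 h that chose the members ran from -0.60 to 0.20 with a median of 0.05 on the log2(mean CPM + 0.5) scale. They were under -0.2 in 4 members, between -0.2 and 0 in 22, between 0 and 0.1 in 27, and between 0.1 and 0.2 in 28. edgeR called 0 members in dHC at 1 h, against 0.224% of the 14305 genes tested, with 5 members and 10.4% of all genes at an unadjusted p under 0.05. That 5 was 1 without naive pool 2 or 1 h pool 3 of dHC, and 3 without naive pool 1 or 1 h pool 1, and DESeq2 called 0. Over all genes such p-values numbered 1492 in the main fit, and 1120, 976, 1044 and 1204 in those 4 fits in that order. Without the filter on low counts edgeR called 2 members, 7 and 10, both lower. In that fit 95 of 21581 genes were called lower and 180 higher. All dHC 1 h pools were above all naive pools in 6 members (8.82% of all genes) and below them in 1 (8.61% of all genes). A small dHC change was not measured as absent: the 95% interval of the dHC change reached 0.4 in 33 members, and in 5 it reached the member's own PL estimate. In 24 members the interval of the PL change lay wholly above that of the dHC change. Both changes chose the members, which favours such separation, and the share over all genes was not computed, so this count is only a description.

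**Figure D3:**
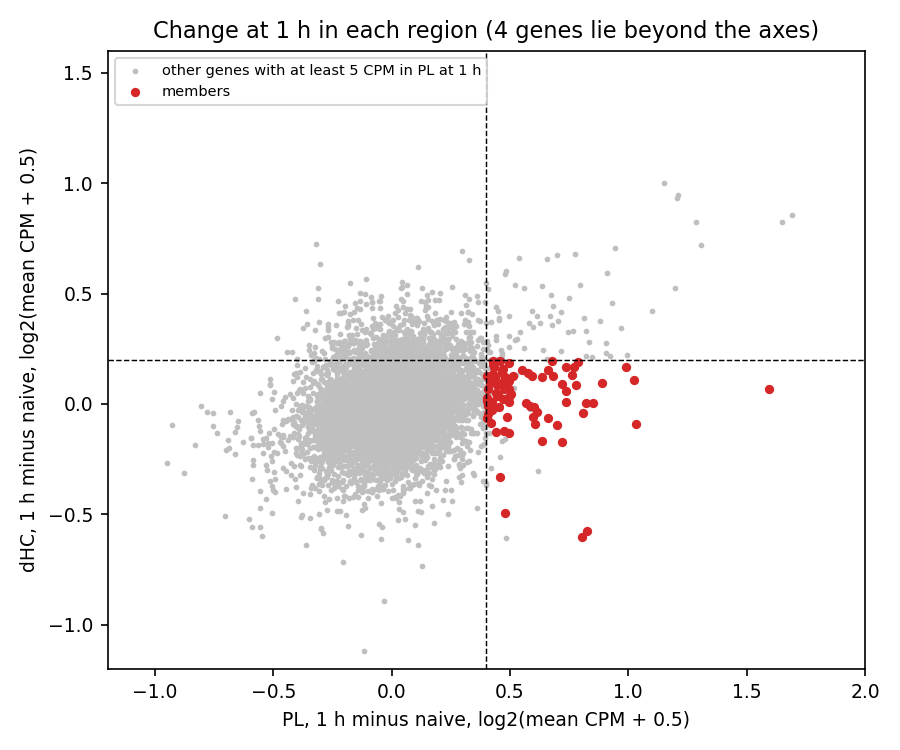
Difference between 1 h and naive in PL (horizontal) and dHC (vertical), both in log2(mean CPM + 0.5), for the 11401 genes with at least 5 CPM in PL at 1 h (4 lie beyond the axes), with the 81 members in red and the limits 0.4 and 0.2 dashed. Members crowd against the PL limit, and 4 of them lie below -0.2 in dHC.

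The difference between regions was itself tested, as the PL change minus the dHC change over all 18 libraries. It was called in 3 members, all more positive in PL, against 0.0609% of 14784 genes, and 49 members had an unadjusted p under 0.05, against 7.08% of all genes in either direction. The rule used both changes, so these counts too are description. The name of the group as raised in PL alone therefore rests on the limits of the rule for all members. In 78 of them the difference between regions was not called, and in the 3 called it is no evidence for the name. The 3 members were member 3 with a difference of 0.90 ± 0.13 (SE, edgeR adjusted p = 0.00194), member 20 with 0.78 ± 0.13 (0.0103) and member 15 with 0.72 ± 0.13 (0.0182). Member 3 was called in 23 of 23 alternative fits (edgeR or DESeq2 adjusted p up to 0.0121), member 20 in 22 (up to 0.0517) and member 15 in 16 (up to 0.136). Leaving out pool 1 of dHC at 1 h gave a count of 1, and leaving out pool 2 or pool 3 of dHC at 6 d gave 5 in each case. Over all genes the count more positive in PL was 9 in the main fit, and 5, 12 and 11 in those fits.

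The members with a larger regional difference had a wider spread. For member 1 it was 1.72 ± 0.38 (SE, edgeR adjusted p = 0.0892) and for member 2 it was 1.24 ± 0.56 (0.657). Members 7 and 10 owed a large part of theirs to dHC. Member 10 held 23.9, 40.6 and 23.8 CPM in naive dHC and 21.3, 16.9 and 19.5 CPM at 1 h, while in PL it held 4.99, 6.71 and 8.47 CPM in naive rats and 9.0, 16.6 and 10.7 CPM at 1 h. It was the 1 member whose dHC pools at 1 h lay all below naive, and since the rule asks for PL pools above naive in every member, 0.277% of all genes with both directions is given only for completeness. At 6 d it was back at 26.3, 37.9 and 24.6 CPM in dHC and at 4.84, 7.23 and 7.56 CPM in PL.

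Member 7 had the same pair of directions as member 10, with overlap of the pools in dHC. Its dHC pools held 11.2, 14.4 and 8.60 CPM in naive rats and 8.86, 6.71 and 6.90 CPM at 1 h, and its PL pools 4.67, 6.05 and 8.23 CPM and then 9.79, 12.9 and 12.0 CPM. The dHC changes of members 7 and 10 were -0.59 ± 0.26 and -0.60 ± 0.19 (log2, SE), which edgeR did not call (adjusted p = 0.424 and 0.234). Their regional differences were 1.46 ± 0.35 and 1.43 ± 0.33 (edgeR adjusted p = 0.143 and 0.109). Without PL 1 h pool 2, the PL call at 1 h was lost for member 10 (edgeR adjusted p = 0.301) and member 7 (0.0992), and it was lost without naive pool 1 as well (0.286 and 0.130). It was also lost without PL 1 h pool 3 (0.0946 and 0.0778) and without naive pool 2 (0.139 and 0.0626).

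Near each limit of the rule, members and non-members had like values. The 3 members nearest the PL limit had differences of 0.402, 0.403 and 0.405, and the 3 genes that failed only this limit had 0.399, 0.398 and 0.396. At the dHC limit the nearest members had 0.196, 0.195 and 0.194 and the nearest genes outside 0.201, 0.201 and 0.205. At the limit on level the nearest members had 5.05, 5.24 and 5.47 CPM and the nearest genes outside 4.98, 4.94 and 4.94 CPM. The list is thus cut from a continuous range and its edges are not gaps in the data.

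At 6 d, most members were back near the naive PL level. The 6 d pools took no part in the choice of members, but the naive pools they are set against did, which favours values above naive at 6 d. The 1 h pools did too, which favours values below 1 h at 6 d. The summed CPM of the 81 members was 1115 ± 49.4 (SD, n = 3) in naive PL, 1678 ± 64.3 at 1 h and 1175 ± 107 at 6 d. The 6 d pools held 1054, 1216 and 1255 CPM, pool 1 below the lowest naive pool of 1063 CPM and the other two above the highest naive pool of 1161 CPM. In dHC the sum was 1493 ± 38.7 CPM in naive rats, 1530 ± 16.6 CPM at 1 h and 1484 ± 47.1 CPM at 6 d.

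Of the PL difference at 1 h, a median of 22.6% was left at 6 d, with a range from -43.5% to 92.1% over members. The 6 d mean was below the naive mean in 23 members, between naive and the midpoint in 43, between the midpoint and 1 h in 15, and at or above the 1 h mean in 0. edgeR called 0 members in PL at 6 d against naive (0.0% of 14318 genes, lowest adjusted p of any member 0.999, DESeq2 0 as well), with 5 members and 3.47% of all genes at an unadjusted p under 0.05. The 5 were members 14, 30, 50, 57 and 71, all higher at 6 d. The median log2 change was 0.11 over the members and 0.00 over all genes.

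Members 50 and 57 stayed closest to the 1 h level among those 5. Member 50 held 3.36, 3.74 and 4.30 CPM in naive PL, 5.18, 4.94 and 6.29 CPM at 1 h and 6.06, 4.96 and 4.93 CPM at 6 d. Member 57 held 17.4, 17.7 and 19.6 CPM, then 26.3, 23.0 and 26.1 CPM, then 21.5, 24.0 and 23.8 CPM. In both, all 6 d pools were above all naive pools and overlapped the 1 h pools. Such separation from naive at 6 d was seen in 11 members (5.14% of all genes). In 18 members 6 d pools 2 and 3 were above all naive pools and pool 1 was not, and pool 1 was the lowest 6 d pool in 50 members. Naive pool 1 was likewise the lowest naive PL pool in 48 members. The shares over all genes were not computed for these counts, so they are not read as a trait of the members. Without 6 d pool 1, edgeR called 0 members against naive, but 13 members and 1565 genes had an unadjusted p under 0.05, in place of 5 and 497, and the median change was 0.16. Without 6 d pool 2 or without 6 d pool 3, 3 members did, against 346 and 434 of all genes, and without pool 3 the median change was 0.05.

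**Figure D4:**
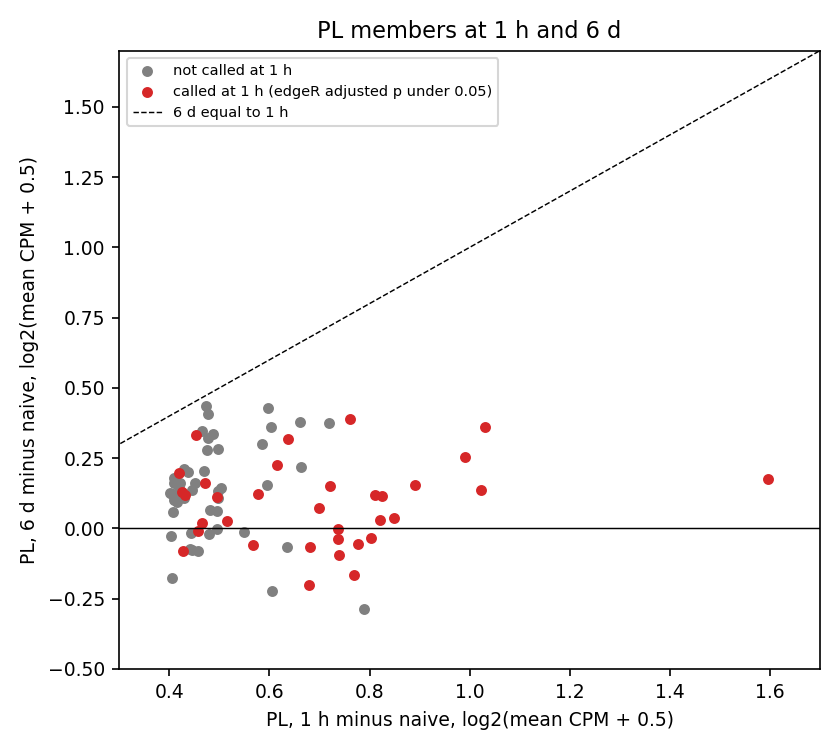
Each of the 81 members at its PL difference from naive at 1 h (horizontal) and at 6 d (vertical), in log2(mean CPM + 0.5), red where edgeR called it at 1 h. All points lie under the dashed line of equal values, 23 of them below 0.

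Between 1 h and 6 d the PL mean of all 81 members was lower, with a median log2 change of -0.46. edgeR called 27 members lower at 6 d than at 1 h (1.05% of all genes), and in 53 members all 6 d pools were below all 1 h pools (8.85% of all genes). The 1 h pools chose the members, which favours lower values at 6 d, so the counts and p-values of this contrast are descriptions. Of the 34 members called at 1 h, 22 were among the 27, and of the other 47 members 5 were. Both calls share the 1 h pools, so nothing is read from this overlap. Member 1 changed by -1.61 ± 0.24 (SE, edgeR adjusted p = 0.000471), member 3 by -0.90 ± 0.09 (2.04e-06) and member 15 by -0.85 ± 0.08 (1.96e-07). Without 1 h pool 2 the count of 27 became 16, and without 6 d pool 1 it became 20. Over all genes the count was 151 in the main fit, and 88 and 156 in those fits.

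In dHC at 6 d, 33 members were above and 48 below the naive value. edgeR called 0 members there (0.0% of 14305 genes, lowest adjusted p of any member 0.832, DESeq2 0 as well), with 9 members and 5.62% of all genes at an unadjusted p under 0.05. That 9 was 5 without dHC 6 d pool 2, where the count over all genes was 665 in place of 804. The difference between regions in the 6 d change was also called in 0 members (0.0% of 14784 genes), with 8 members and 3.77% of all genes at an unadjusted p under 0.05. The naive pools of both regions helped to choose the members. This favours dHC values below naive at 6 d, and 6 d changes more positive in PL than in dHC, so nothing is read from these counts.

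The levels of the members in the 2 regions were compared at 6 d, in 6 libraries that the rule did not use. edgeR called 13 members higher in PL than in dHC (22.8% of all genes) and 26 lower (23.0% of all genes). The members called higher in PL were 16.0% of the 81, below the background share, and those called lower were 32.1%, above it. The median difference was -0.09 over the members and 0.00 over all genes. Whether these shares differ from the background beyond chance was not tested.

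The largest regional differences at 6 d were several times the spread between pools. Member 35 held 86.6, 97.3 and 99.6 CPM in dHC and 6.28, 6.56 and 9.17 CPM in PL at 6 d, a log2 difference of -3.69 ± 0.17 (SE, edgeR adjusted p = 5.51e-16). Member 10 followed with -2.20 ± 0.24 (9.77e-09), and member 74 with -2.11 ± 0.14 (1.50e-12). For member 74 the 6 d pools were 27.0, 27.1 and 34.5 CPM in dHC and 6.61, 8.04 and 6.19 CPM in PL. Members 28 and 41 came next with -1.34 and -1.26. In all 5 the PL pools at 6 d were below the dHC pools.

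In the other direction, member 2 had a log2 difference of 3.23 ± 0.43 at 6 d (SE, edgeR adjusted p = 4.43e-07). Member 47 held 11.9, 22.0 and 20.2 CPM in PL and 2.52, 2.95 and 5.67 CPM in dHC at 6 d, a difference of 2.25 ± 0.23 (edgeR adjusted p = 3.86e-09). Members 29, 8 and 6 had 1.47, 0.89 and 0.78. In all 5 the PL pools at 6 d were above the dHC pools. These 10 members kept the same called direction in each of the 23 alternative fits of that contrast.

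The same comparison in the other conditions shows how the members moved relative to dHC. In naive rats 10 members were called higher in PL (23.4% of all genes) and 29 lower (22.9%), with a median difference of -0.28. At 1 h 35 were called higher (24.0%) and 11 lower (23.9%), with a median of 0.26. Both sets of values use pools that the rule used, so the step between them is fixed by the choice of members. Of the 29 members lower in PL in naive rats, 11 were still called lower at 1 h, 16 were not called and 2 were called higher. At 6 d, 22 members were called lower in PL as they had been in naive rats, and 10 were called higher in both conditions. In all, 67 members had the same call, higher, lower or none, in naive rats and at 6 d. How many of all genes kept or changed their call between conditions was not computed, so these counts are not read as a trait of the members.

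**Figure D5:**
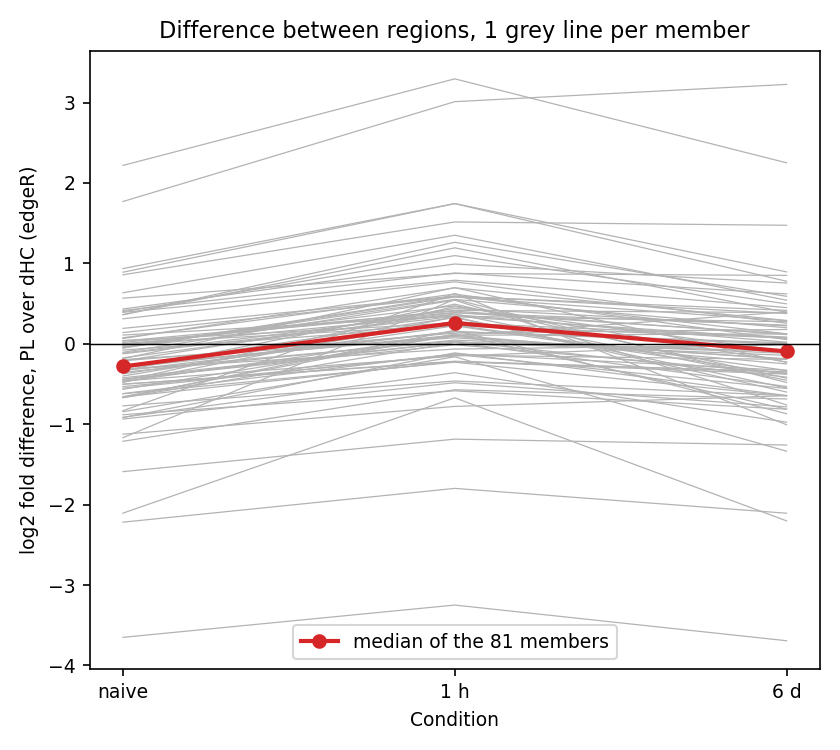
Log2 difference of PL over dHC (edgeR) for each of the 81 members (grey lines) and their median (red) in naive rats, at 1 h and at 6 d. The median goes from -0.28 to 0.26 and to -0.09, and the outermost lines stay far from 0 in all conditions.

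The nearest comparison set was the 61 genes that met the same PL conditions but had a dHC difference of 0.2 or more and were not on the list left out. Their median PL difference was 0.63, against 0.50 in the members, and their median dHC difference was 0.33, against 0.05. At 1 h in PL, 59% of them and 42.0% of the members were called higher, and at 6 d 55.7% and 33.3% were called lower than at 1 h. In the comparison of regions at 6 d, 14.8% of them were called higher in PL and 41% lower, against 16.0% and 32.1% of the members. Both sets were chosen by the PL naive and 1 h pools, which favours the PL calls at 1 h and from 1 h to 6 d. Those call rates are therefore descriptions. The median naive PL level was 9.80 CPM in the 61 genes and 7.19 CPM in the members. The differences between the sets were not tested.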

How the data were processed

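RNA of PL and dHC punches was sequenced in 18 pools of 5 rats. The deposited values are whole-number counts per Ensembl gene, 1 table per library, not normalized, with 5 rows for reads given to no gene, which were left out of library sizes and tests. Per the submitters' processing notes, Rnor_6.0, Picard 1.126, bedtools 2.17.0 and DESeq2 were used; for the aligner, the counting program and the strand setting the sources used here give nothing, so overlapping, antisense and near-identical genes are uncertain.

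CPM was computed over gene rows, and 3 counts was taken as a floor, which covers counting error only. Tests used edgeR 4.0.16 in R 4.3.3 (quasi-likelihood, TMM factors, filterByExpr, Benjamini-Hochberg over all genes tested, called under 0.05), with 9 libraries for changes within a region and 18 for contrasts between regions. SEs are the log2 fold change over the square root of F, and 95% intervals use the t quantile at the test's total degrees of freedom. All 81 members passed the filter. Alternatives were RLE size factors, DESeq2 1.42.0, no filter, only the groups compared, a replicate block, other limits of the rule and each pool left out. The code was tested on simulated data.

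The members, and the lists prepared for them, were chosen with earlier results of these data known. Lists of genes and markers could not be used, since 0 of 32662 identifiers matched a name. Detailed were the 2 members with the largest PL difference, the 2 with the most negative dHC difference (these 4 with identifiers), the 3 called in the regional difference, the 5 largest regional differences at 6 d in each direction and those nearest each limit; members 4, 5, 9, 14, 23, 30, 50, 57 and 71 were singled out after their values were seen. Deviations of pools with the same number correlated from -0.06 to 0.19 in PL and from 0.00 to 0.24 in dHC. Pools with other numbers correlated from -0.18 to 0.18 in PL and from -0.19 to 0.12 in dHC. Between PL and dHC the same numbers gave -0.14 to 0.04 and other numbers -0.10 to 0.13. Numbers were not taken to pair pools, although a replicate block raised the count of genes called higher at 1 h. It was 153 in place of 112 in PL, and 110 in place of 31 in dHC. Whether pools share an effect by number was not tested. Counts of 2 pools of a group differed by more than sampling noise in all 18 replicate pairs (chi-square per degree of freedom 1.67 to 4.98).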

Additional observations from a re-analysis of the deposited data

Results flagged for a closer look

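Member 10 had a log2 difference from naive of 0.85 in PL at 1 h and of -0.60 in dHC, and all 3 pools at 1 h lay beyond the naive pools in each region, in opposite directions. The rule requires the PL side of every member and limits the dHC side. The PL call (edgeR adjusted p = 0.0476) was lost without any one of PL naive pool 1 or 2 and PL 1 h pool 2 or 3 (0.0946 to 0.301). Neither the dHC change (edgeR adjusted p = 0.234) nor the difference between regions, 1.43 (0.109), was called.

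For 3 members the difference between the PL and the dHC change at 1 h was called by edgeR over all genes: 0.90 for member 3, 0.72 for member 15 and 0.78 for member 20. The rule chose the members by both changes, so these are descriptions.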

How the results depend on the processing

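Directions were followed through the fits for part of the detailed members only. They covered the PL change at 1 h, the regional difference of that change and the regional difference at 6 d. None of those followed was reversed in any fit. The members singled out after their values were seen were not followed, nor were the other changes printed for members. Of 81 members chosen by the rule, the number became 171 with a PL level of 1 CPM, 47 with 10 CPM, 194 with a PL difference of 0.3, 37 with 0.5, 26 with a dHC difference under 0, and 78 to 161 with single pools left out (161 without PL naive pool 3, 123 without PL 1 h pool 1, and 1 gene more than that without PL naive pool 2). It became 70 with CPM over TMM effective library sizes, and 92 and 60 with 0.1 and 2 CPM added in place of 0.5. The lists also changed in content: of the 81, 63 to 76 were kept with single pools left out. With TMM sizes 70 were kept, with 0.1 CPM added 78 and with 2 CPM added 55. Members called higher in PL at 1 h were 34, against 54 without the filter on low counts and 18 to 50 with single pools left out. Over all genes the same counts were 112, 255 and 52 to 251. Members called in the regional difference at 1 h were 3, against 6 in DESeq2, 14 without the filter, 8 with only the groups compared and 1 to 5 with single pools left out. All of them were more positive in PL. Over all genes the counts more positive in PL were 9, 13, 42, 16 and 5 to 12 in the same order. Members called lower at 6 d than at 1 h were 27, against 38 without the filter and 16 to 28 with single pools left out (16 without PL 1 h pool 2). Over all genes the same counts were 151, 321 and 88 to 161 (88 without PL 1 h pool 2). Members called higher and lower in PL than dHC at 6 d were 13 and 26, against 10 to 14 and 22 to 27 over all fits. Against naive, 0 were called at 6 d in either region in every fit. With a replicate block, which the labels do not support, the counts of members were 40, 4, 33, 14 and 26 in the order given. The cause of these shifts was not tested. Members not called at 1 h had lower naive levels (median 6.47 CPM) than those called (13.1 CPM). Which size of change the design can detect was simulated only in the check of the code, and those values are not given here.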
